A study of Mus musculus with 18 samples.

Results

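The Zfp genes are the mouse genes named for zinc finger proteins, and most of them encode proteins with tandem zinc fingers of the C2H2 type. They were taken here as the protein-coding genes whose symbol is Zfp followed by a number and, in some cases, a letter, with a mean of at least 10 raw counts over 18 libraries. Zfp36, Zfp36l1 and Zfp36l2, whose fingers are of the CCCH type and bind RNA, were left out. This gave 204 genes, of 390 protein-coding genes with such a symbol and 43629 gene identifiers in all, so that single genes were chosen by name and by their level over all libraries. Just above the limit were Zfp97 and Zfp958, each with a mean of 10.1 counts, and Zfp354c with 10.2, and just below it were Zfp943 with 9.83, Zfp965 with 9.67 and Zfp296 with 9.5.

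A C2H2 finger folds around a zinc ion and reads a few bases of DNA, so that an array of fingers reads a longer sequence. The largest group of such proteins in mammals also carries a KRAB domain, which recruits the corepressor Trim28 and through it histone deacetylases, histone methyltransferases and heterochromatin proteins. Many KRAB zinc finger genes lie in clusters of recent duplicates, and several of them silence retroelements or protect imprinted loci, while members without KRAB include activators, parts of chromatin complexes and proteins that bind RNA, ribosomes or microtubules.

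The libraries are QuantSeq 3′ mRNA libraries of AT3, a mouse mammary carcinoma cell line used as a model of triple-negative breast cancer. Cells were given DMSO, A-241 at 250 nM or A-485 at 1000 nM for 1 h, and then recombinant mouse IFNγ at 1 ng/mL or its vehicle for another 2 h, which gave 6 conditions of 3 libraries each. A-241 and A-485 block the acetyltransferase domain of P300 and CBP, the coactivators that acetylate histones at enhancers and promoters. The 2 inhibitors were used at different doses, all cells are of 1 line, and all were collected 3 h after the inhibitor or DMSO. The study's methods call the triplicates technical and the sample labels call them biological, so p values measure only the spread between these libraries, which may be technical.

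The libraries held between 3417167 and 7856830 counts, and the 204 genes together took between 0.250% and 0.354% of them. Gm42418, a gene that overlaps ribosomal RNA sequence, took between 7.11% and 23.0% of the counts, and the highest of these shares were in DMSO replicate 3 (20.1%) and IFNγ replicate 2 (23.0%). The epithelial markers Krt8, Krt18, Epcam, Cdh1 and Krt14 were present in every library, and Krt19 was at 0 in 17 of 18. Their sum was 1246 to 1710 CPM without an inhibitor, 903 to 1058 CPM with A-241 and 986 to 1150 CPM with A-485. The markers did not move together. The log2 fold change of Krt14 was -1.21 with A-241 and -0.94 with A-485 (edgeR adjusted p = 0.00022 and 0.0055). That of Krt18 was -0.67 with A-241 (edgeR adjusted p = 0.00028). With A-241, Epcam was at -0.002 and Cdh1 at -0.17 on the same scale (edgeR adjusted p = 0.995 and 0.59). The part of these markers in the results on the Zfp genes was not tested. The leukocyte, endothelial and fibroblast markers were low (the 6 leukocyte markers summed to between 2.68 and 39.8 CPM, the count scaled to a common library size with TMM factors). IFNγ raised its target genes Irf1 and Cxcl10 by 5.05 and 7.48 on the log2 scale (edgeR adjusted p = 3.52e-08 for both).

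Most members were low and are therefore measured with few counts. Their mean count ran from 10.1 to 836 with a median of 38.7, against 80.4 for all 11964 genes tested, and 122 of the 204 were under 50. Zfp106, which binds RNA, had the highest mean count (836), followed by Zfp207, a microtubule-binding protein that loads Bub3 onto kinetochores (829), and Zfp91 (753). All 204 passed the filter on low counts. A KRAB-like stretch was found near the start of 86 of the proteins, which had a median of 12 fingers and a median mean count of 25.5, while the other 118 had a median of 7 fingers and a median mean count of 57.3. A canonical C2H2 pattern was found 2 or more times in 191 proteins, once in 8, and not at all in Zfp330, Zfp365, Zfp503, Zfp703 and Zfp839. The genes were spread over the chromosomes unevenly, with 48 on chromosome 7 and 22 on chromosome 17.

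The upstream sequences of 4 genes are given here because the results below turn on these genes. Zfp503 fell and Zfp335 rose with both inhibitors, and Zfp773 and Zfp772 are KRAB neighbours that moved in opposite directions with A-241. Each is the 250 bases before the RefSeq start of the gene (GRCm38.p6, all on the minus strand, written 5′ to 3′ along the gene). These lie at chr14:21989602-21989851 (Zfp503), chr2:164911751-164912000 (Zfp335), chr7:7136756-7137005 (Zfp773) and chr7:7209999-7210248 (Zfp772). Capitals mark every match, on either strand, of the GC box GGGCGG, the CCAAT box CCAAT, the TATA box TATAAA, the E-box CACGTG and the cyclic AMP response element TGACGTCA, and in Zfp773 and Zfp772 also the longest run of bases that both windows hold.
Zfp503: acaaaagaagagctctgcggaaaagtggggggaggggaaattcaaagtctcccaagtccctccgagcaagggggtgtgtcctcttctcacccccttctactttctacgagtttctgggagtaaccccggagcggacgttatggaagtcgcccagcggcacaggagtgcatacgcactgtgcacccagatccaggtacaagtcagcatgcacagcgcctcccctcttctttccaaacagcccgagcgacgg
Zfp335: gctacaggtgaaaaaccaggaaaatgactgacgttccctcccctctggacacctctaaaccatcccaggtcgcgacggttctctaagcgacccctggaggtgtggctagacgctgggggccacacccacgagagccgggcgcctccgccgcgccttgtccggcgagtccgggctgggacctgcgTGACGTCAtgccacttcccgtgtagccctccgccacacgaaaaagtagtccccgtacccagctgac
Zfp773: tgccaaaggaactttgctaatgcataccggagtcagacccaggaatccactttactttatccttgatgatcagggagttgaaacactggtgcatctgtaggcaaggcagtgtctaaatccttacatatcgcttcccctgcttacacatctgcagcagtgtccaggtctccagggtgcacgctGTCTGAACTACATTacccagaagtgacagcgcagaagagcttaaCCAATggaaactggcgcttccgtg
Zfp772: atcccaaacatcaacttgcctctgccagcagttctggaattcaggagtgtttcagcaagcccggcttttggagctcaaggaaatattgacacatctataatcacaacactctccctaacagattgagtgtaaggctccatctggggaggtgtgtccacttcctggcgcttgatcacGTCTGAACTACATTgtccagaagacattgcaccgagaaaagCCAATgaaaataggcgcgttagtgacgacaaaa

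The Zfp335 window held 1 TGACGTCA, which begins 66 bases before the start, and 21 CG dinucleotides. The Zfp503 window held no match to these motifs and 13 CG dinucleotides. Zfp773 and Zfp772 shared a run of 14 bases, gtctgaactacatt, which begins 68 bases before the start of Zfp773 and 74 bases before that of Zfp772, and in both a CCAAT follows it. This run was found by comparing the 2 windows, and it is held by 6 of 32851 RefSeq windows of the same length, from 4 genes. Over the 206 windows of the 165 members with a RefSeq entry, 45.1% held CCAAT, against 33.8% of all windows, and among members with a KRAB-like stretch the share was 60.5%. GGGCGG was in 44.7% of member windows and in 32.7% of all windows, but in 25.6% of those of members with a KRAB-like stretch. TGACGTCA was in 3.88%, 1.55% and 5.81%, in the same order. All windows come from 27025 genes and so include genes not tested here, while members passed a level limit. The median was 6 CG dinucleotides over all windows and 13 over member windows. A match describes the letters of the window and is not evidence of binding.

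With A-241, 9 members fell and 14 rose in the mean over cells without and with IFNγ, and the median of the members was above that of all genes tested. The falls included Zfp521, a cofactor of mesenchymal and blood cell fate, Zfp462, which is needed for heterochromatin in pluripotent cells, and Zfp503, a repressor of the NET family. The rises were led by Zfp335, a regulator needed by neural progenitors and maturing T cells, and by the relatives Zfp518a and Zfp518b. Calls were made by edgeR's quasi-likelihood test at a Benjamini-Hochberg adjusted p under 0.01 over all genes tested. The falls were 4.41% of the members, against 7.05% of all genes tested, and the rises were 6.86%, against 3.39%.

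The median log2 fold change of the members with A-241 was 0.20, against 0.00 for all genes tested. Of the 204, 134 were above 0 and 70 below. At an unadjusted p under 0.05 there were 54 higher and 19 lower. Counts by sign alone or at an unadjusted p, here and below, mostly stand without the share over all genes tested. Where they do, they describe the members and do not show a trait particular to them. The levels are shares of RNA within a library, and in bulk cultures fewer cells and less RNA per cell cannot be told apart. The summed level of the members was 2974 to 3417 CPM in DMSO, 2756 to 3155 CPM in IFNγ, 3323 to 3458 CPM in A-241 and 3162 to 3307 CPM in A-241 plus IFNγ.

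**Figure D1:**
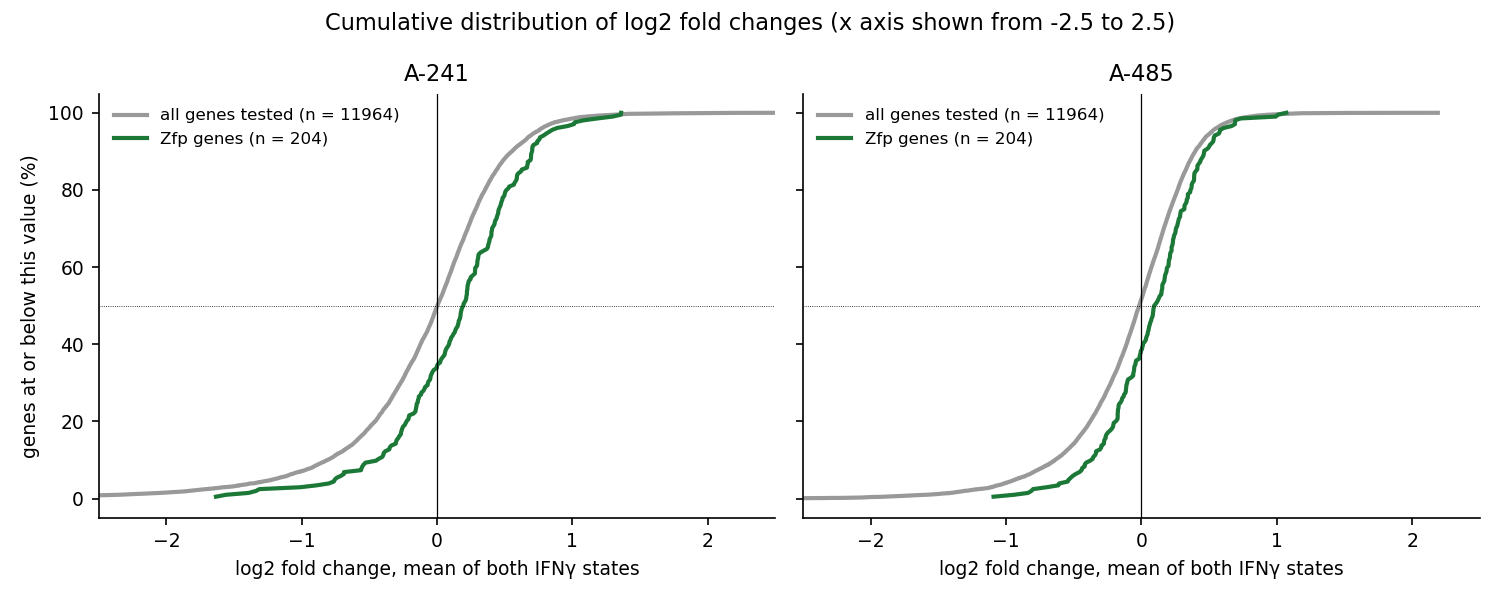
Cumulative share of genes (percent, vertical axis) at or below each log2 fold change (horizontal axis, shown from -2.5 to 2.5) for the 204 Zfp genes (green) and all 11964 genes tested (grey), with A-241 on the left and A-485 on the right. The green curve crosses the dotted 50% line at 0.20 with A-241 and at 0.10 with A-485, and the grey curve at 0.00 and -0.02.

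Regulators that act at promoters, at enhancers or in chromatin complexes made up 19 of the members. With A-241, 4 of them fell and 1 rose, against 7.05% and 3.39% of all genes tested. Zfp521 lay at 5.68, 3.78 and 6.55 CPM in DMSO and at 4.05, 4.76 and 3.31 CPM in IFNγ. In A-241 it was 0.629, 1.80 and 1.47 CPM and in A-241 plus IFNγ 2.17, 1.14 and 1.65 CPM. Every library with A-241 was below every library without an inhibitor. The fitted level fell to 32.2% (log2 fold change -1.63 ± 0.26 SE, adjusted p = 0.00034, edgeR with Benjamini-Hochberg adjustment), on 3 to 10 counts per A-241 library. Zfp521 lies at chr18:13687013-13972787 on the minus strand, and its protein has 27 matches to the finger pattern.

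Zfp462, at chr4:54945048-55083563 on the plus strand, encodes 34 finger matches. It ranged from 6.55 to 15.5 CPM without an inhibitor (median 9.31, 6 libraries) and from 1.65 to 5.26 CPM with A-241 (median 4.48). The sets did not overlap, and the log2 fold change was -1.34 ± 0.26 (edgeR adjusted p = 0.0018). Zfp516, an activator of the thermogenic gene Ucp1 in fat, ranged from 15.5 to 20.2 CPM without an inhibitor and from 8.23 to 13.0 CPM with A-241. Here too the sets did not overlap, and the log2 fold change was -0.71 ± 0.13 (edgeR adjusted p = 0.0013).

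Zfp503, at chr14:21983959-21989601 on the minus strand, fell with both inhibitors. Its level was 20.8, 24.3 and 12.4 CPM in DMSO and 21.6, 14.6 and 18.5 CPM in IFNγ. It was 10.1, 8.99 and 15.98 CPM in A-241, 5.86, 8.13 and 8.44 CPM in A-241 plus IFNγ, 9.69, 11.0 and 10.2 CPM in A-485, and 7.64, 8.13 and 7.01 CPM in A-485 plus IFNγ. A-241 replicate 3 lay among the libraries without an inhibitor, and all 6 libraries with A-485 lay below them. The log2 fold change was -1.01 ± 0.18 with A-241 (edgeR adjusted p = 0.00092) and -1.09 ± 0.18 with A-485 (edgeR adjusted p = 0.0018). Zfp703, the other NET family gene and a driver of luminal breast cancer in humans, was called with neither inhibitor (-0.05 ± 0.14 with A-241, -0.44 ± 0.14 with A-485).

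Zfp335, at chr2:164891882-164911757 on the minus strand, was the largest rise called with each inhibitor. Its level was 29.4, 15.4 and 16.2 CPM in DMSO and 19.99, 19.6 and 30.01 CPM in IFNγ. It was 69.9, 45.8 and 48.6 CPM in A-241, 76.0, 46.9 and 48.8 CPM in A-241 plus IFNγ, 39.98, 32.4 and 49.2 CPM in A-485, and 44.9, 59.9 and 50.8 CPM in A-485 plus IFNγ. The 12 libraries with an inhibitor were all above the 6 without one. The fold was 2.56 with A-241 (log2 fold change 1.36 ± 0.20, edgeR adjusted p = 0.00016) and 2.1 with A-485 (1.07 ± 0.20, edgeR adjusted p = 0.0040). Zfp335 shares exon bases with Pcif1, whose log2 fold change with A-241 was -0.05 ± 0.21, and with Zfp335os, which had a mean of 3.44 counts. The stated counting settings name no strand option and count a read for every gene it overlaps, so reads in the shared bases could not be assigned to 1 gene.

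Of the other regulators, Zfp143, an activator found at promoters and at the bases of chromatin loops, was at 0.53 ± 0.13 with A-241 (edgeR adjusted p = 0.012). Zfp592 was at 0.57 ± 0.16 (edgeR adjusted p = 0.021), and Zfp687 and Zfp532, with which it shares a family, were at 0.08 and 0.45. Zfp217, which is amplified in human breast cancer, was at -0.16, Zfp281 at -0.26, Zfp64 at -0.26, Zfp384 at -0.41, Zfp422 at -0.17, Zfp219 at -0.30, Zfp148 at -0.03, Zfp131 at 0.23 and Zfp644 at 0.34. None of these passed the test. Over the 19 members of this list the median was -0.16, and 12 were below 0. Zfp296, the gene just under the level limit, was measured and fell with A-241 by 2.04 on the log2 scale (SE 0.41, edgeR adjusted p = 0.0020), on a mean of 9.5 counts.

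**Figure D2:**
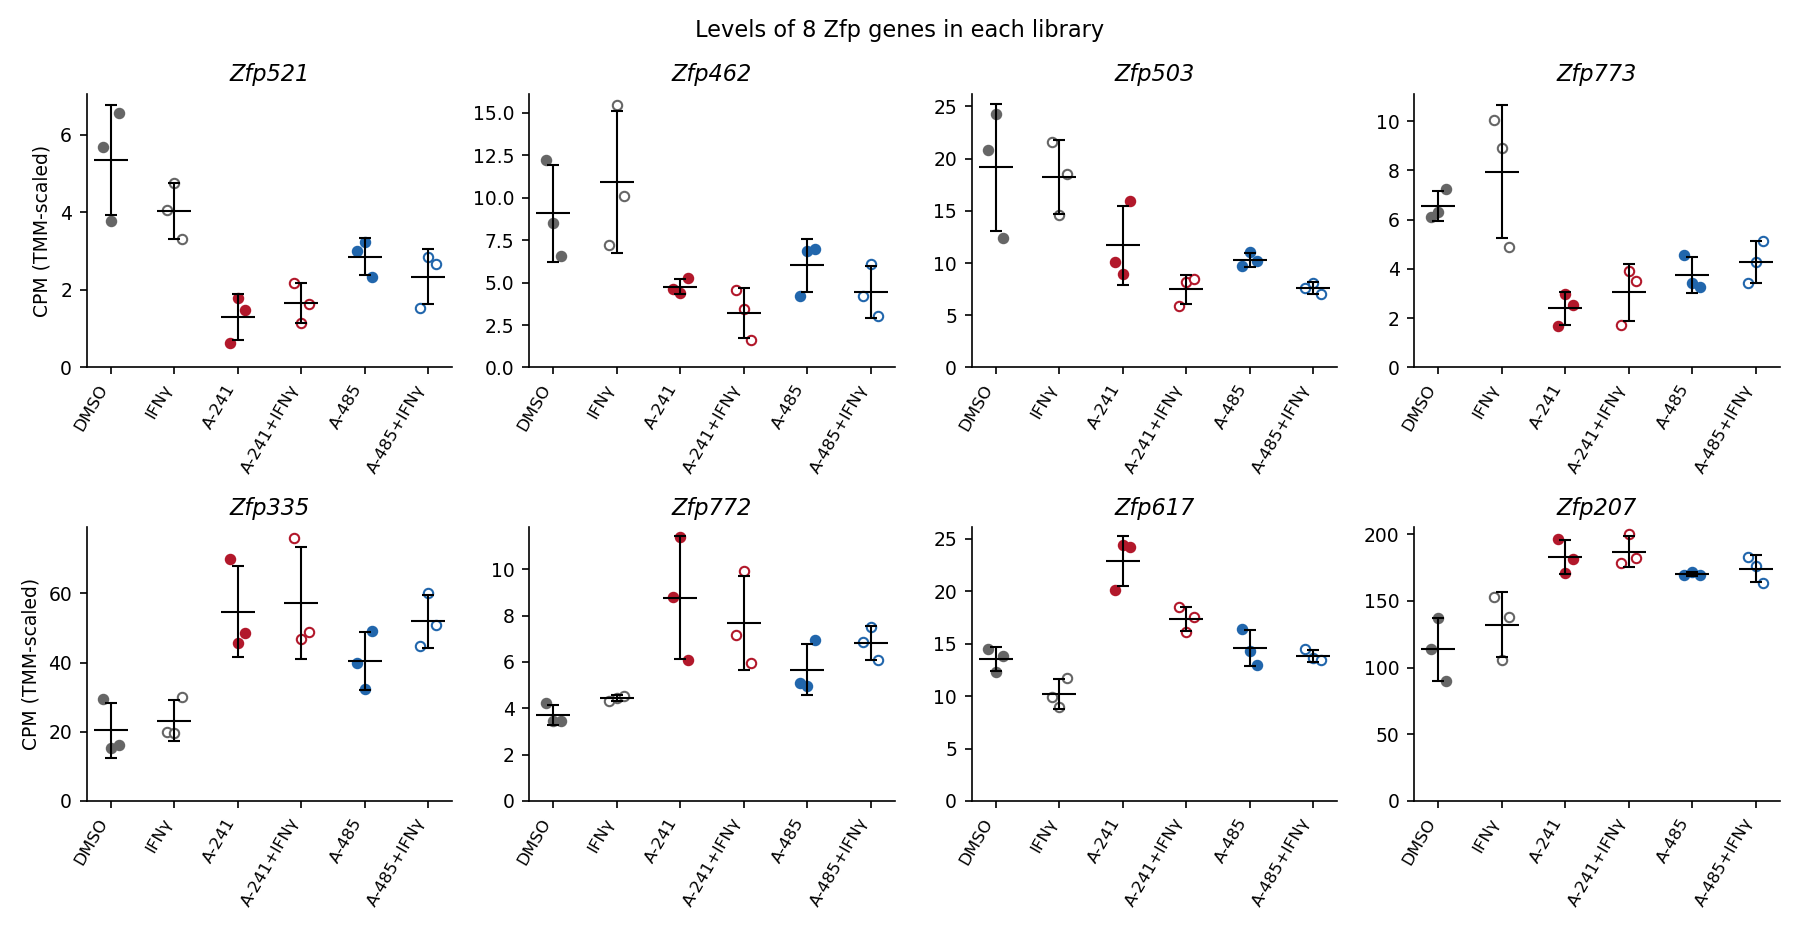
Level in CPM scaled by TMM factors (vertical axes, from 0) of 8 Zfp genes in the 6 conditions, with 1 point per library (filled without IFNγ, open with IFNγ), the mean as a line and the SD as bars (3 libraries). Zfp521, Zfp462 and Zfp773 lie below the libraries without an inhibitor in all 6 libraries with A-241, and Zfp335, Zfp772, Zfp617 and Zfp207 lie above them.

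Among the 86 members with a KRAB-like stretch, 2 fell and 5 rose with A-241, against 7.05% and 3.39% of all genes tested. Their median log2 fold change was 0.28, with 64 above 0. Among the other 118, 7 fell and 9 rose, and the median was 0.14, with 70 above 0. The classes rest on a sequence pattern, which missed the known KRAB protein Zfp445. The difference between these classes was not tested. By finger number the medians were -0.01 for 36 members with 0 to 4 fingers, 0.15 for 64 with 5 to 9, 0.27 for 62 with 10 to 14 and 0.24 for 42 with 15 to 37. By position, the median was 0.33 for the 22 members on chromosome 17, of which none fell and 1 rose, and 0.13 for the 48 on chromosome 7, of which 3 fell and 3 rose.

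The 2 KRAB-like genes that fell were Zfp566 and Zfp773. Zfp773 lay at 6.10, 6.30 and 7.24 CPM in DMSO and 10.1, 8.92 and 4.89 CPM in IFNγ. In A-241 it was 1.68, 3.00 and 2.52 CPM, and in A-241 plus IFNγ it was 1.74, 3.90 and 3.50 CPM. The sets did not overlap, and the log2 fold change was -1.39 ± 0.24 (edgeR adjusted p = 0.00054). Zfp566 ranged from 2.44 to 6.21 CPM without an inhibitor and from 0.206 to 1.80 CPM with A-241, on 1 to 9 counts per A-241 library, and fell by 1.56 on the log2 scale (SE 0.31, edgeR adjusted p = 0.0018). It shares exon bases with Gm26920, which has a mean of 7 counts and was at 1.41 ± 0.39 with A-241 (edgeR adjusted p = 0.018).

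Zfp772 lies 65362 bases from Zfp773 on chromosome 7, at 7202117 to 7209998 against 7127073 to 7136755, on the same strand. In contrast to its neighbour it rose. It was at 4.21, 3.47 and 3.45 CPM in DMSO and 4.29, 4.46 and 4.54 CPM in IFNγ. It was 8.81, 11.4 and 6.10 CPM in A-241 and 7.16, 9.92 and 5.97 CPM in A-241 plus IFNγ, so that the sets did not overlap. The log2 fold change was 1.02 ± 0.18 (edgeR adjusted p = 0.00090). With A-485 the values were 0.61 ± 0.19 for Zfp772 and -0.84 ± 0.23 for Zfp773, and neither was called (edgeR adjusted p = 0.070 and 0.037). The 75-base stretches of the last 500 transcript bases of both genes were sought in the whole transcripts of other genes. Of these stretches, 7.98% for Zfp773 and none for Zfp772 were shared.

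The other KRAB-like genes that rose with A-241 were Zfp617, Zfp101, Zfp111 and Zfp120. Zfp617 had the lowest adjusted p of all members. It ranged from 8.92 to 14.5 CPM without an inhibitor and from 16.1 to 24.4 CPM with A-241, without overlap, and the log2 fold change was 0.76 ± 0.11 (edgeR adjusted p = 0.00014). The pseudogene Gm18180, with a mean of 7.44 counts, shares 38.8% of the 75-base stretches at the 3′ end of Zfp617. Reads of these stretches cannot be told apart by sequence, and how they were counted was not tested. Zfp617 also shares exon bases with Zfp882, and reads in these bases could not be assigned to 1 gene. Zfp101 rose by 1.01 ± 0.22, Zfp111 by 0.83 ± 0.20 and Zfp120 by 0.60 ± 0.13 on the log2 scale (edgeR adjusted p = 0.0034, 0.0078 and 0.0037).

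KRAB proteins known to repress retroelements or to keep imprints were represented by 4 members, and none was called. Of these, Zfp445 had no match to the KRAB-like pattern, so it was counted among the 118 members without one. Zfp809, which silences murine leukaemia virus through its primer binding site, was at 0.42 ± 0.37, Zfp932, which acts on endogenous retroviruses, at -0.12 ± 0.25, Zfp568, which silences a placental Igf2 transcript, at 0.10 ± 0.14, and Zfp445, which keeps imprints, at -0.14 ± 0.35 with A-241. Of the 16 corepressor genes through which KRAB proteins act, Chd3, of the NuRD complex, fell by 0.57 on the log2 scale (SE 0.11, edgeR adjusted p = 0.0018) and the deacetylase Hdac1 rose by 0.52 (SE 0.12, edgeR adjusted p = 0.0080). Trim28 was at 0.25 ± 0.11 and Setdb1 at -0.33 ± 0.20, and the median of the 16 was -0.01. The background for calls over all genes tested was 7.05% lower and 3.39% higher.

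Members known for roles other than binding DNA numbered 11. With A-241, 1 of them, Zfp207, was called as higher, against 3.39% of all genes tested, and none was called as lower, against 7.05%. Zfp207 was at 114, 137 and 89.6 CPM in DMSO, 153, 106 and 137 CPM in IFNγ, 196, 171 and 181 CPM in A-241 and 178, 200 and 182 CPM in A-241 plus IFNγ. The sets did not overlap, and the rise of 0.59 ± 0.12 on the log2 scale is a 1.51-fold increase (edgeR adjusted p = 0.0020). Zfp106 was at -0.69 ± 0.26 (edgeR adjusted p = 0.075), Zfp318, which is needed for surface IgD in B cells, at 0.45 ± 0.12 (edgeR adjusted p = 0.014), Zfp830 at 0.40 ± 0.11 and Zfp326 at -0.43 ± 0.13 (edgeR adjusted p = 0.018 and 0.029). Zfp598, a ligase that senses collided ribosomes, was at 0.06, Zfp622, which takes part in ribosome assembly, at -0.39, Zfp638 at -0.15, Zfp346 at 0.21, Zfp706 at -0.07 and Zfp91 at 0.22.

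The remaining calls with A-241 were of members outside these lists. Zfp827, which brings the NuRD complex to telomeres, ranged from 7.43 to 11.0 CPM without an inhibitor and from 1.46 to 5.46 CPM with A-241, and fell by 1.31 on the log2 scale (SE 0.23, edgeR adjusted p = 0.00080). Zfp637 ranged from 11.0 to 20 CPM and from 7.55 to 8.85 CPM, and fell by 0.89 (SE 0.16, edgeR adjusted p = 0.00091). In both the sets did not overlap. Zfp553 fell by 0.55 (SE 0.13, edgeR adjusted p = 0.0083), with overlap, and its call was lost with limma-voom, upper-quartile factors, total counts and no filter on low counts.

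Zfp518a and Zfp518b, of which the latter binds the histone methyltransferase G9a, rose by 1.18 ± 0.29 and 1.08 ± 0.26 on the log2 scale (edgeR adjusted p = 0.0084 and 0.0078). Zfp518a ranged from 1.19 to 5.26 CPM without an inhibitor and from 5.86 to 9.44 CPM with A-241, and Zfp518b from 2.08 to 6.62 CPM and from 8.62 to 13.7 CPM. The sets of both genes did not overlap. Zfp280b rose by 0.85 ± 0.16 (edgeR adjusted p = 0.0010), from a range of 3.79 to 6.77 CPM to one of 7.99 to 10.5 CPM. Its relatives Zfp280c and Zfp280d, named after their values were seen, were at 0.22 and 0.09.

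Zfp41 rose by 0.81 ± 0.16, Zfp329 by 0.69 ± 0.16, Zfp236 by 0.67 ± 0.16 and Zfp777 by 0.51 ± 0.12 on the log2 scale (edgeR adjusted p = 0.0023, 0.0070, 0.0066 and 0.0069). All 6 libraries with A-241 were apart from all 6 without an inhibitor for 18 of the 23 members called. The calls were made on the same libraries, so this separation is not separate support for them. Zfp410 and Zfp420, named after their values were seen, were at 1.36 ± 0.42 and 1.30 ± 0.41 and were not called (edgeR adjusted p = 0.031 and 0.033). Over all 204 members, 7 lay wholly below and 17 wholly above, against 5.66% and 4.0% of all genes tested. With A-485 it was 2 below and 6 above, against 2.36% and 1.04%.

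With each library left out in turn, the 9 falls became 8 or 9, and the 14 rises became between 6 and 14. Leaving out A-241 replicate 2 left 7 rises, A-241 replicate 3 left 8, A-485 replicates 1, 2 and 3 left 9, 8 and 9, A-241 plus IFNγ replicates 1, 2 and 3 left 8, 9 and 6, and A-485 plus IFNγ replicates 2 and 3 left 9 and 8. With any 1 library left out, 8 falls (Zfp521, Zfp566, Zfp773, Zfp462, Zfp827, Zfp503, Zfp637 and Zfp516) and 5 rises (Zfp335, Zfp772, Zfp280b, Zfp41 and Zfp617) kept their call.

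Of the other 10 calls, Zfp101 was lost without A-241 plus IFNγ replicate 1 (edgeR adjusted p = 0.012) and Zfp207 without A-241 plus IFNγ replicate 3 (edgeR adjusted p = 0.010). Zfp120 was lost without A-241 replicate 2, A-485 replicate 2, or A-241 plus IFNγ replicate 1 or 3 (edgeR adjusted p up to 0.015). Zfp518a, Zfp518b, Zfp777, Zfp329, Zfp111, Zfp236 and Zfp553 lost their call with 11 to 16 of the 18 libraries left out in turn, at adjusted p values up to 0.035 in the same test.

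DMSO replicate 3 and IFNγ replicate 2, the libraries with the highest Gm42418 share, held the lowest level among the 6 libraries without an inhibitor for 11 of the 14 members that rose and for 4 of the 9 that fell. No share over all genes tested was set beside these counts. Members called as risen are also selected for low levels without an inhibitor, so the counts do not show a trait of the Zfp genes. The part of Gm42418 in these levels was not tested. The leukocyte marker sums of DMSO replicate 3 and IFNγ replicate 2 were 19.3 and 34.5 CPM. Without both libraries 10 members fell and 22 rose with A-241, of which 8 and 12 were among the 9 and 14, and Zfp553, Zfp518b and Zfp236 were no longer called.

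**Figure D3:**
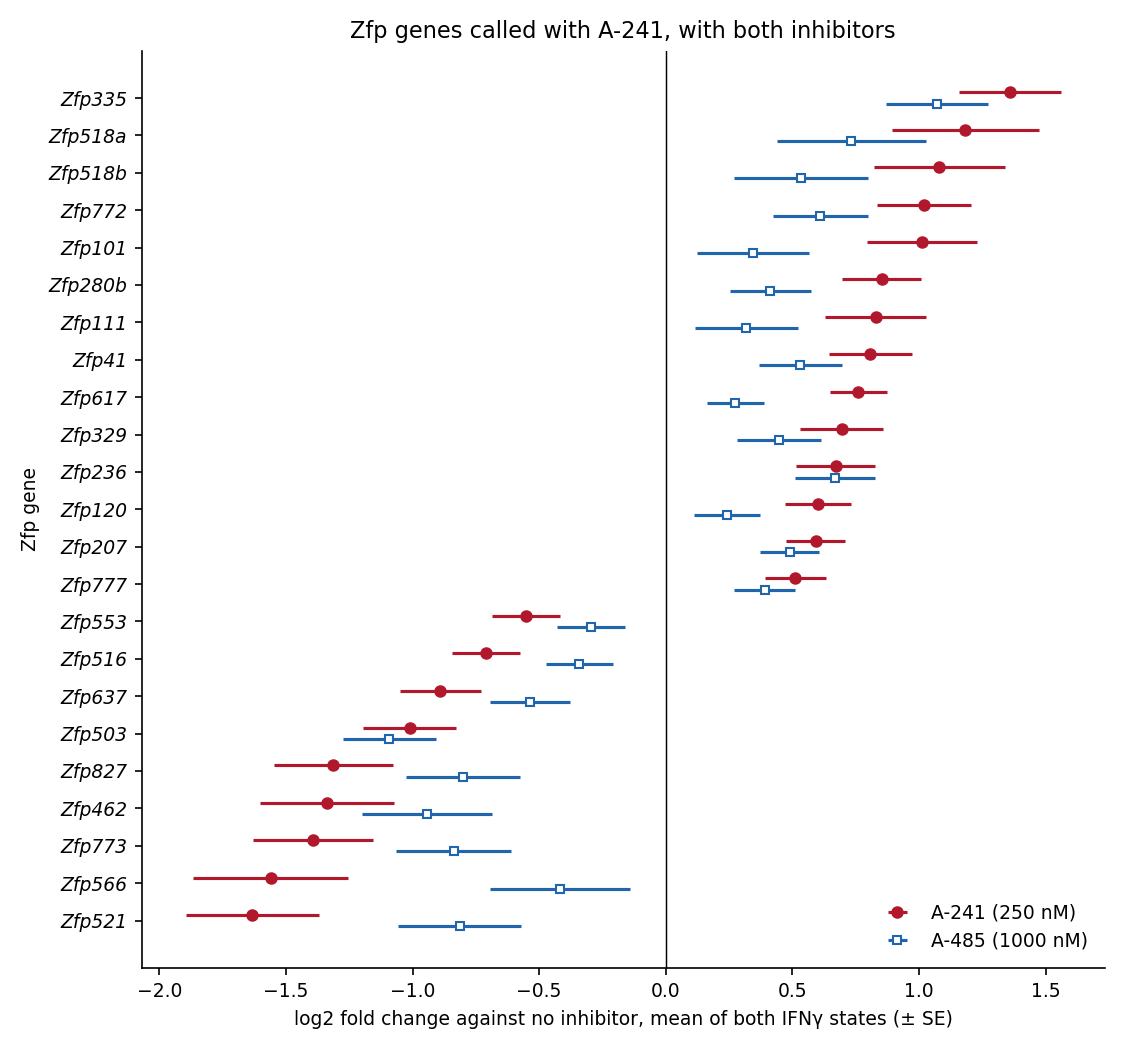
Log2 fold change against no inhibitor, mean of the cells without and with IFNγ (horizontal axis, bars are the SE), for the 23 Zfp genes called with A-241 (circles) and for the same genes with A-485 (squares). With A-241 the values run from -1.63 for Zfp521 to 1.36 for Zfp335. Both inhibitors were compared with the same 6 libraries.

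With A-485, 1 member fell and 1 rose in the mean over cells without and with IFNγ, against 2.39% and 0.201% of all genes tested. They were Zfp503 and Zfp335, whose values are given above. The median of the 204 was 0.10, against -0.02 for all genes tested, and 126 were above 0. Without A-485 replicate 3 or without A-241 plus IFNγ replicate 3, the median of the members was 0.06 and that of all genes -0.06. With total counts they were 0.20 and 0.08. Members with a KRAB-like stretch had a median of 0.15 and the others one of 0.08.

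Of the other members called with A-241, none was called with A-485, and their values stand here beside those above, against the same control libraries. Zfp462 ranged from 3.03 to 6.96 CPM with A-485 and was at -0.94 ± 0.26 on the log2 scale (edgeR adjusted p = 0.039). Zfp827 was at -0.80 ± 0.23 and Zfp521 at -0.81 ± 0.24 (edgeR adjusted p = 0.047 and 0.061). Zfp236 ranged from 9.27 to 11.8 CPM with A-485, above the 3.79 to 9.25 CPM of the libraries without an inhibitor, and was at 0.67 ± 0.16 (edgeR adjusted p = 0.018). Zfp207 ranged from 163 to 183 CPM, also above the libraries without an inhibitor, and was at 0.49 ± 0.12 (edgeR adjusted p = 0.020).

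The call of Zfp335 with A-485 was lost without DMSO replicate 2, A-485 replicate 1 or 3, IFNγ replicate 1, or A-485 plus IFNγ replicate 2 or 3 (edgeR adjusted p up to 0.014), and without IFNγ replicate 3 there were 2 rises. DESeq2 called 7 members and limma-voom 2.

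The direct comparison of the 2 inhibitors set libraries with A-241 at 250 nM against libraries with A-485 at 1000 nM. At these doses it called 0 members in either direction, against 1.15% of all genes tested lower with A-241 and 0.1% higher. At an unadjusted p under 0.05 there were 30, DESeq2 called 1 and limma-voom 0. The lowest adjusted p was that of Zfp617 (edgeR adjusted p = 0.024), which was at 0.76 with A-241 and 0.27 with A-485, a difference of 0.49 with a 95% interval from 0.25 to 0.72. Zfp566 was at -1.56 and -0.42, a difference of -1.14 with an interval from -1.81 to -0.48, and Zfp521 was at -1.63 and -0.81, a difference of -0.82 with an interval from -1.40 to -0.24. For Zfp503 the difference was 0.08, with an interval from -0.32 to 0.48, and for Zfp335 0.29, with an interval from -0.13 to 0.70. A-485 was not measured at 250 nM, nor A-241 at 1000 nM.

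The effect of A-241 was also compared within each IFNγ state. Without IFNγ, 2 members fell and 4 rose, against 3.53% and 0.827% of all genes tested. Zfp521 fell by 1.98 on the log2 scale (SE 0.38, edgeR adjusted p = 0.0030) and Zfp637 by 1.06 (SE 0.23, edgeR adjusted p = 0.0072), and Zfp335, Zfp772, Zfp236 and Zfp617 rose by 1.42 ± 0.29, 1.23 ± 0.26, 1.15 ± 0.22 and 0.76 ± 0.16 (edgeR adjusted p between 0.0035 and 0.0071). With IFNγ, 4 fell and 2 rose, against 3.54% and 0.543% of all genes tested. Zfp462, Zfp827, Zfp503 and Zfp516 fell by 1.73, 1.52, 1.29 and 0.87 on the log2 scale, and Zfp335 and Zfp617 rose by 1.30 ± 0.28 and 0.76 ± 0.16 (edgeR adjusted p between 0.0051 and 0.0092). Each of these 12 calls was lost with at least 3 and at most 13 of the 18 libraries left out in turn. All 12 were lost when only the groups compared were fitted.

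The difference between the states was tested by the interaction, and 0 members were called in either direction (background 0.0334% lower and 0.0% higher). At an unadjusted p under 0.05 there were 6, and DESeq2 and limma-voom called 0. Zfp236 had the lowest adjusted p (edgeR adjusted p = 0.85), with log2 fold changes of 1.15 ± 0.22 without IFNγ and 0.19 ± 0.22 with IFNγ. All 23 members called in the mean had the same sign in both states. They were selected by that mean, which favours the same sign, so this is not a separate result. Over the 204 members the effects in the 2 states, which share no library, had a Pearson r of 0.66 and a Spearman rho of 0.62 across genes, which are not independent replicates, and 163 had the same sign (79.9%), against 78.4% of all genes tested.

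**Figure D4:**
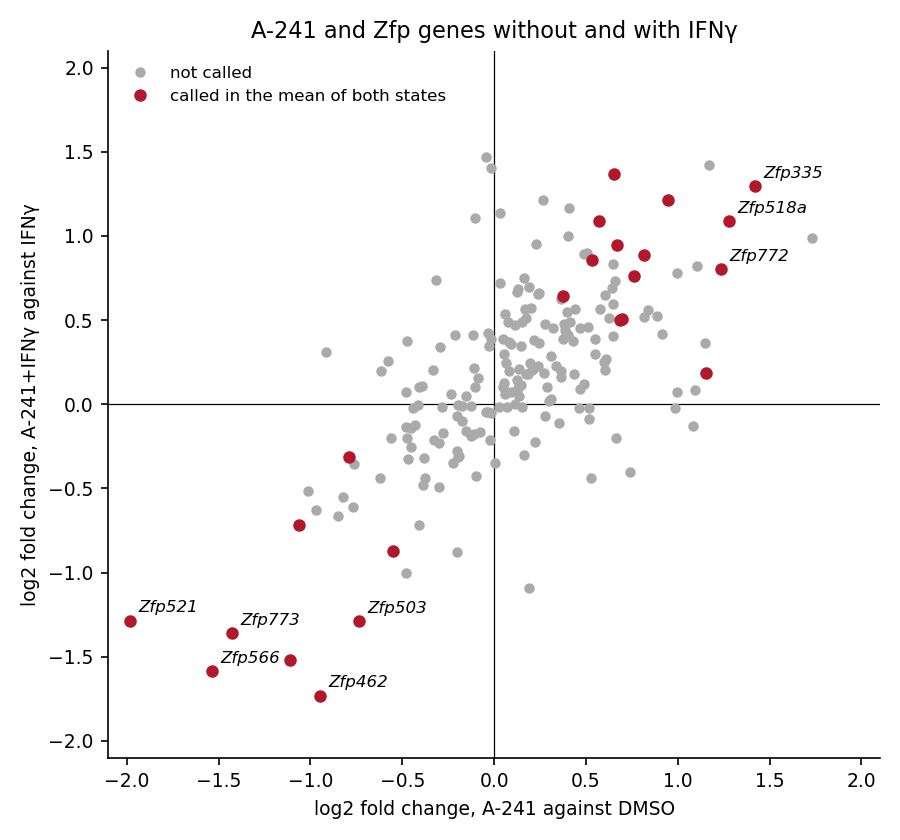
Log2 fold change with A-241 in cells without IFNγ (horizontal axis) and with IFNγ (vertical axis), for 204 Zfp genes. Red points are the 23 genes called in the mean of both states, and 163 of the 204 genes have the same sign on both axes.

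A-485 within a state called 0 members, against 0.619% lower and 0.0418% higher without IFNγ and 0.535% and 0.0167% with IFNγ. At an unadjusted p under 0.05 there were 18 members without IFNγ and 30 with it. DESeq2 called 0 and 3 of them, and limma-voom 0 in both states. Across members the median log2 fold change with IFNγ was 0.18, against -0.03 for all genes tested. Without IFNγ the medians were -0.05 and 0.00. Without DMSO replicate 1 they were 0.04 for the members and 0.00 for all genes tested. They were 0.02 and 0.03 without DMSO replicate 3, 0.03 and 0.08 with total counts, and 0.01 and 0.04 with 2 surrogate variables. Among these settings, the members were above all genes tested only without DMSO replicate 1. The interaction of A-485 with IFNγ called 0 members (background 0.0% in each direction), with 10 at an unadjusted p under 0.05 and 0 by DESeq2 and by limma-voom.

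IFNγ alone called 0 of the 204 members, against 0.1% of all genes tested lower and 1.2% higher. At an unadjusted p under 0.05 there were 17 lower and 2 higher, and DESeq2 and limma-voom called 0. The median log2 fold change was -0.14, against 0.00 for all genes tested, and 139 members were below 0. Zfp703 had the lowest adjusted p. It was at 21.5, 14.97 and 17.2 CPM in DMSO and at 7.36, 11.0 and 12.2 CPM in IFNγ, without overlap, with a log2 fold change of -0.82 ± 0.20 (edgeR adjusted p = 0.043). Next was Zfp318, at -0.63 on the log2 scale (edgeR adjusted p = 0.095).

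Other zinc finger genes were counted at the same level limit of 10 counts. Of 11 Klf genes, whose factors carry C2H2 fingers near the end of the protein, 6 fell and 2 rose with A-241 and the median was -1.27. Of 31 Zbtb genes, 4 fell and 2 rose, with a median of 0.18, and of 10 Zscan and Zkscan genes none was called (median 0.26). Over all genes tested, 7.05% fell and 3.39% rose. The CCCH genes Zfp36l1 and Zfp36l2, which promote the decay of mRNAs with AU-rich elements, fell by 1.39 and 1.76 on the log2 scale (edgeR adjusted p = 0.00020 and 1.15e-05), and Zfp36 was at 0.22 (edgeR adjusted p = 0.55). The differences between these families and the Zfp genes were not tested.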

How the data were processed

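Per the labels, the submitters' processing notes and the study's methods, the authors trimmed 75-base single-end QuantSeq reads with cutadapt 1.7, aligned them to GRCm38 (mm10) with HISAT2 2.1.0 and used featureCounts on exons. The deposited values are raw counts per Ensembl gene, with 1 column for each of the 18 libraries and no normalization. The study's methods name limma-voom for their comparisons. Reads over exons of several genes were counted for each, and no strand setting was named. The annotation release is not given in the sources used here.

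Identifiers were joined to GENCODE vM21 (42462 of 43629 matched). Of the 390 Zfp genes, 23 had no count. Proteins were translated from GENCODE coding sequences, C2H2 fingers were counted by the canonical spacing of their cysteines and histidines, and a KRAB-like stretch was sought in the first 150 residues. Shared exon bases affected 54 members, and 32 shared a stretch of 75 bases in their last 500 transcript bases with another gene. Promoters are from RefSeq (165 members matched).

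Counts were fitted with edgeR 4.0.16 in R 4.3.3. Genes kept by filterByExpr (11964) were scaled by TMM factors, a model with a mean for each condition was fitted by glmQLFit to the 18 libraries together (common biological coefficient of variation 0.263), and contrasts were tested with glmQLFTest. Mean effects average both IFNγ states. Adjustment was that of Benjamini and Hochberg over every gene tested, and a gene was called under 0.01. ± is the SE of a log2 fold change. Alternatives used DESeq2 1.42.0, limma 3.58.1 and sva 3.50.0. Tables and figures were made with Python 3.11.15, pandas 2.3.3 and matplotlib 3.10.9. On simulated data for the A-241 mean effect (11791 genes), 51.7% of genes changed by 1 on the log2 scale and 99.1% of genes changed by 2 were called, with 0 false calls. The simulation gave every gene the common coefficient of variation and drew the changed genes from all genes tested. It therefore checks the procedure and does not give the power or the false calls for the members in these data.

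The members and lists were chosen with earlier results of these data known. The text names the 8 largest falls and 8 largest rises called with A-241, up to 4 in each direction in the other comparisons, all members of the role lists, the genes next to the level limit, and Irf1 and Cxcl10 as a check of the IFNγ treatment. Of the genes set for that check, 1 is not reported here. The remaining members called with A-241 (Zfp553, Zfp329, Zfp120 and Zfp777), the members with most counts and without a finger match, and the exon and family neighbours were named after their values were seen.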

Additional observations from a re-analysis of the deposited data

How the results depend on the processing

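Depth limits these values: 122 of the 204 members had a mean under 50 counts, and the median half-width of the 95% interval of a log2 fold change was 0.43 for a mean effect and 0.62 within an IFNγ state. Each member called kept its direction under the alternatives run for it. Alternatives were not run for single members that were not called. With total counts in place of TMM factors the median of all genes moved from 0.00 to 0.13 with A-241 and that of the members from 0.20 to 0.32, and the calls became 7 falls and 18 rises.

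For the A-241 mean effect (9 falls, 14 rises), falls were 4 with at least 10 counts in every library, where 137 members were tested. Zfp521, Zfp566, Zfp773, Zfp462 and Zfp827 were not tested there, and each fall still tested was kept. Rises were 8 with the replicate block, 22 without both libraries richest in Gm42418 and 27 with 2 surrogate variables. They were 32 at an adjusted p under 0.05 and 9 without members that share exon bases. For the A-485 mean effect (1 fall, 1 rise), falls and rises were 3 and 4 with DESeq2, 4 and 5 with surrogate variables and 4 and 4 at an adjusted p under 0.05. Falls were 0 with total counts, and rises were 2 without the Gm42418-rich libraries and 0 without members that share exon bases. For A-241 minus A-485 (0 and 0), surrogate variables gave 2 lower and 6 higher, and there was 1 higher with DESeq2, 3 without the Gm42418-rich libraries and 2 at an adjusted p under 0.05.

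For A-241 against DMSO (2 falls, 4 rises), falls were 4 with DESeq2 and 1 with limma-voom. They were 1 with at least 10 counts in every library, where Zfp521 was not tested. Falls and rises were 1 and 1 with no filter, 1 and 2 with the replicate block, 0 and 0 with only the groups compared, 9 and 16 with surrogate variables and 6 and 9 at an adjusted p under 0.05. Falls were 4 without the Gm42418-rich libraries, and rises were 1 without members that share exon bases. For A-241 plus IFNγ against IFNγ (4 falls, 2 rises), falls were 2 with upper-quartile factors. They were also 2 with at least 10 counts in every library, where Zfp462 and Zfp827 were not tested. Falls and rises were 0 and 4 with total counts, 0 and 0 with the replicate block and with only the groups compared, 7 and 15 with surrogate variables and 7 and 12 at an adjusted p under 0.05. Rises were 6 with DESeq2, 9 without the Gm42418-rich libraries, 0 without members that share exon bases and 1 without members with shared 3′ ends, an alternative chosen after seeing the data.

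For A-485 against DMSO (0 and 0), there was 1 fall and 1 rise without the Gm42418-rich libraries, 2 and 3 with surrogate variables and 1 fall at an adjusted p under 0.05. For A-485 plus IFNγ against IFNγ (0 and 0), there were 1 fall and 2 rises with DESeq2, 1 and 1 without the Gm42418-rich libraries, 2 and 1 with surrogate variables and 1 and 2 at an adjusted p under 0.05. For IFNγ against DMSO (0 and 0), there was 1 fall with surrogate variables and 1 at an adjusted p under 0.05. The cause of these moves was not tested, other than that fewer members or groups entered some fits.

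With each library left out in turn, the A-241 mean effect gave 8 to 9 falls and 6 to 14 rises, the A-485 mean effect 1 fall in every case and 0 to 2 rises, A-241 against DMSO 0 to 3 falls and 0 to 5 rises, A-241 plus IFNγ against IFNγ 0 to 4 of each, and A-485 plus IFNγ against IFNγ 0 to 1 falls (1 without DMSO replicate 3). The other comparisons stayed at 0. For A-241 against DMSO, falls dropped to 0 without DMSO replicate 1 or 3 or A-241 replicate 1 or 3, and to 1 without A-241 replicate 2, A-485 replicate 1, A-241 plus IFNγ replicate 1 or 2, or A-485 plus IFNγ replicate 1. Rises dropped to 0 without DMSO replicate 3, to 1 without A-241 replicate 1 or 2, and to 2 without DMSO replicate 1 or 2, A-241 replicate 3, A-485 replicate 2, or A-485 plus IFNγ replicate 2 or 3. For A-241 plus IFNγ against IFNγ, falls were 0 and rises 0 without any 1 of its own A-241 plus IFNγ libraries. Falls were 1 or 2 without DMSO replicate 1 or 2, any 1 library of A-241 or IFNγ, A-485 replicate 1, or A-485 plus IFNγ replicate 1. Rises were 4 without DMSO replicate 3, 1 without A-241 replicate 2 or 3, A-485 replicate 1 or 2, IFNγ replicate 2 or A-485 plus IFNγ replicate 1, and 0 without IFNγ replicate 1 or A-485 plus IFNγ replicate 2 or 3.

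Libraries with the same replicate number did not deviate together (correlations of their deviations from the condition means ran from -0.80 to 0.48), so the numbers were not taken as pairs, and the replicate block left 8 falls and 8 rises for the A-241 mean effect, all among the 9 and 14.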
